A study of Arabidopsis thaliana with 64 samples.

Results

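Dehydrated leaves of the brassinosteroid receptor mutant bri1-301 were compared with dehydrated leaves of wild-type (WT) Arabidopsis thaliana. The comparison took the 3 dehydrated bri1-301 libraries and the 3 dehydrated WT libraries by their labels, which makes 6 of the 40 libraries with values. In all, 19824 genes reached 1 RPM in 2 or more libraries and entered the test. RPM is the authors' name for their read signal scaled to library size.

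The plants were 4 weeks old, were grown with 16 hours of light a day, and served as controls, underwent 4 hours of dehydration or spent 5 days in fixed-carbon starvation. Total RNA from leaf tissue was sequenced from single ends of 50 bases. The bri1-301 plants carry a weak allele of BRI1, and WT carries no listed lesion. Dehydrated leaves of 3 further lines, with 3 libraries each, gave a range of levels: bes1-D, a gain-of-function allele of BES1, atg7-2, a mutant of an autophagy gene, and DSK2 RNAi, a knockdown of an autophagy receptor. The spread was estimated over all 40 libraries. The control leaves of both genotypes (3 libraries each) and the starved leaves (2 libraries each) served for comparison. The labels do not state whether replicates were separate plants, and p-values therefore describe the spread among these libraries, which may be technical. In bulk leaf RNA, fewer cells of a type and less RNA per cell cannot be told apart.

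Brassinosteroids are growth-promoting steroid hormones. BRI1 is a receptor kinase at the cell surface that binds the hormone together with the co-receptor BAK1. The signal inactivates the kinase BIN2, and the transcription factors BES1 and BZR1 then induce growth genes and repress the genes of hormone synthesis, so that synthesis is under feedback control. Auxin-induced SAUR genes, expansins and small bHLH proteins act in cell expansion. In water deficit the hormone abscisic acid drives most of the protective response.

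One library stood apart. The 6 libraries were of even depth, 29.1 to 29.4 in units of 1e6 reads, and 3 reads, the floor used here for counting error, came to 0.102 to 0.103 RPM. The third dehydrated WT library separated from the other 5 on the first principal component, which held 73.6% of the variance. Its chi-square per degree of freedom was 153 and 118 against its fellow WT libraries, which differed from each other by 14.8. Among the bri1-301 libraries, replicate 2 differed from the others by 49.3 and 37.9, and those from each other by 22.8. On the first component bri1-301 replicate 2 lay at -55.9 and the third WT library at 97.3. The slope of log2 level on log2 transcript length was -0.27 in the third dehydrated WT library and 0.34 to 0.60 in the other 5. Across 19751 genes the log2 difference between genotypes ran with transcript length (Spearman rho 0.597), and rho was 0.292 without that library. These values are across genes, which are not independent replicates. Results are therefore given with and without that WT library, called WT replicate 3, wherever they differ in call. The part of length or of this library in any single difference was not tested beyond that.

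**Figure D1:**
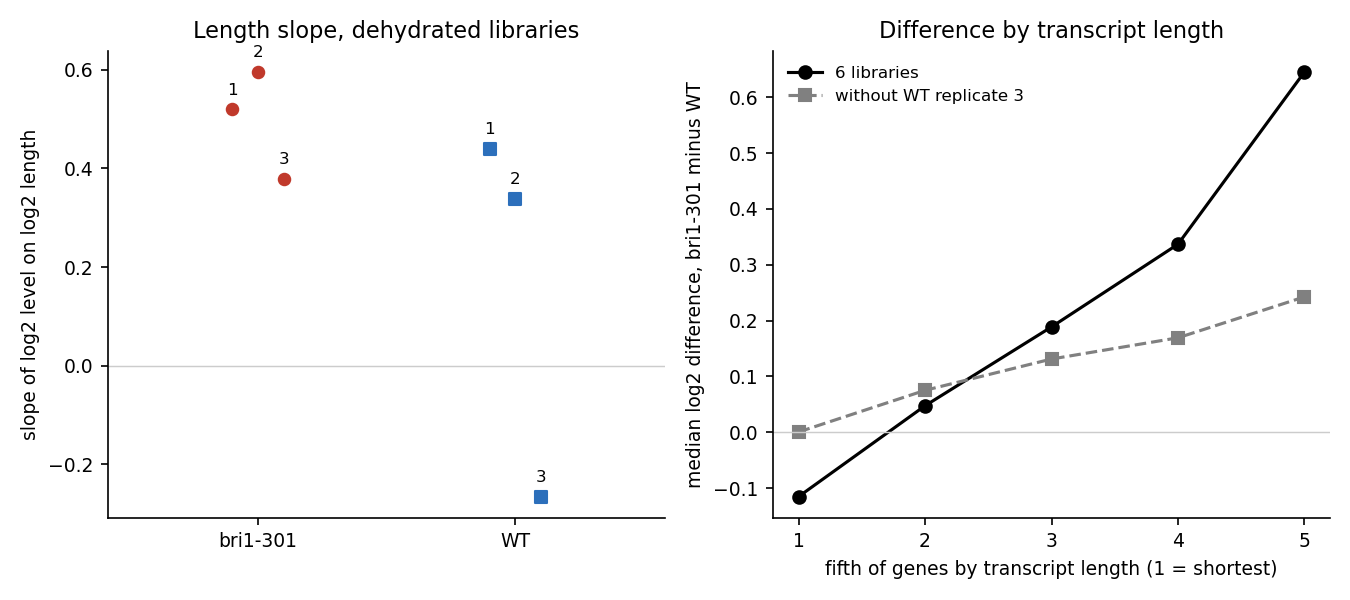
The left panel shows, for each dehydrated library (number = replicate), the slope of log2 level on log2 transcript length over genes. WT replicate 3 lies at -0.27 and the other 5 libraries at 0.34 to 0.60. The right panel shows the median log2 difference (bri1-301 minus WT) in 5 equal classes of genes by length, which ran from -0.12 to 0.65 with 6 libraries and from 0.00 to 0.24 without WT replicate 3.

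Of the 19824 genes, 221 passed limma's test at an adjusted p under 0.05 (1.11%). Of these, 97 were higher in bri1-301 (0.489% of all tested) and 124 were lower (0.626%). All differences are on the log2(RPM + 0.5) scale, bri1-301 minus WT, and the median over all genes was 0.20. All 221 genes had no overlap between the 3 libraries of each genotype, which held for 28.3% of all genes tested. Without WT replicate 3 the count was 104 (0.525%), with 39 higher (0.197%) and 65 lower (0.328%), and 100 of these were among the 221. The share of called genes that were higher, 43.9%, depended on the scaling. It was 33.2% with median-of-ratios scaling (78 of 235), 27.5% with edgeR on recovered reads (55 of 200), 32.6% with DESeq2 (146 of 448) and 59.5% with the length trend removed (128 of 215, 1.09% of genes tested, 0.648% higher and 0.44% lower). Median-of-ratios scaling moved the median of all genes by 0.20, to near 0. When changes of known size were simulated for the dehydrated contrast over 19824 genes, 42% of those of 2-fold and 95% of those of 4-fold were found, and 12 unchanged genes were called. These changes were put only in genes with a WT mean of at least 5 RPM. The simulation held neither a length trend between genotypes nor a WT library set apart. Recovery and false calls under those conditions were thus not simulated. Calls were spread unevenly over 5 equal classes of genes by length. The shortest genes held 73 of the lower calls and 9 of the higher, and the longest held 1 and 20. Without WT replicate 3 the shortest held 38 lower and 5 higher calls, and the longest 2 and 4. The part of length in these counts was not tested.

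The BRI1 gene itself (AT4G39400) was read first. Its levels were 131, 97.2 and 109 RPM in bri1-301 and 91.2, 75.7 and 31.3 RPM in WT. All 3 mutant libraries lay above the WT libraries, but the difference of 0.89 (SE 0.35) did not pass (limma adjusted p = 0.209), and it was 0.42 without WT replicate 3. A weak allele that keeps its transcript gives no check of the labels from this level.

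Among the genes of brassinosteroid synthesis, 6 of 10 listed and tested rose, none fell, and the list's median was 1.02 against 0.20 for all genes. All 6 also passed without WT replicate 3, where the median was 1.07. With the length trend removed 5 passed, and among all genes with transcripts in this list's range of lengths 0.579% were called higher.

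BR6OX2 (AT3G30180), which makes the last step to brassinolide, rose furthest in the list. It stood at 96.2, 151 and 133 RPM in bri1-301 and at 11.9, 11.8 and 6.59 RPM in WT. The lowest mutant library lay several fold above the highest WT library, with a difference of 3.61 (SE 0.26, limma adjusted p = 9.16e-11). Its paralog BR6OX1 (AT5G38970) had 1.09, 0.780 and 1.40 RPM against 0.206, 0.136 and 0.137 RPM, the WT values resting on 4 to 6 reads a library. Its difference was 1.25 (SE 0.17, limma adjusted p = 2.94e-05).

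ROT3 (AT4G36380) and CYP90D1 (AT3G13730) are related cytochrome P450 enzymes that act at the same step. ROT3 had 18.1, 16.0 and 16.9 RPM in bri1-301 against 4.20, 3.47 and 2.12 RPM in WT, a difference of 2.26 (SE 0.20, limma adjusted p = 4.92e-09). CYP90D1 had 7.93, 8.10 and 7.58 RPM against 1.75, 1.63 and 1.02 RPM, a difference of 2.11 (SE 0.25, limma adjusted p = 1.87e-06). The mutant libraries of both genes were tightly grouped and above every WT library.

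DWF4 (AT3G50660), a hydroxylase often taken as rate-limiting, had 9.63, 12.1 and 13.7 RPM in bri1-301 against 2.96, 3.75 and 3.96 RPM in WT. The difference was 1.60 (SE 0.33, limma adjusted p = 0.00821). CPD (AT5G05690), another P450 of the pathway, had 632, 447 and 612 RPM against 299, 295 and 378 RPM. Its difference of 0.79 (SE 0.19) passed (limma adjusted p = 0.0284), and over the alternatives its adjusted p ran from 0.015 to 0.28. The length-trend fit was one of those in which CPD did not pass (adjusted p = 0.0815).

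The 4 members that did not pass were DET2 and DWF1, DWF5 and DWF7, the last of which with DWF1 and DWF5 act in the making of sterols. DET2, a steroid reductase, differed by -0.34, DWF1 by 0.25, DWF5 by 0.39 and DWF7 by 0.15. DWF5 was the one of the 4 without overlap between genotypes, which held for 28.3% of all genes tested. For DWF5 all 3 WT libraries lay below all 12 dehydrated libraries of the 4 mutant lines, and bri1-301 was not set apart. Direction was not settled for DWF7, at -0.074 with median-of-ratios scaling, nor for DWF1, at -0.064 with the length trend and WT replicate 3 both removed.

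**Figure D2:**
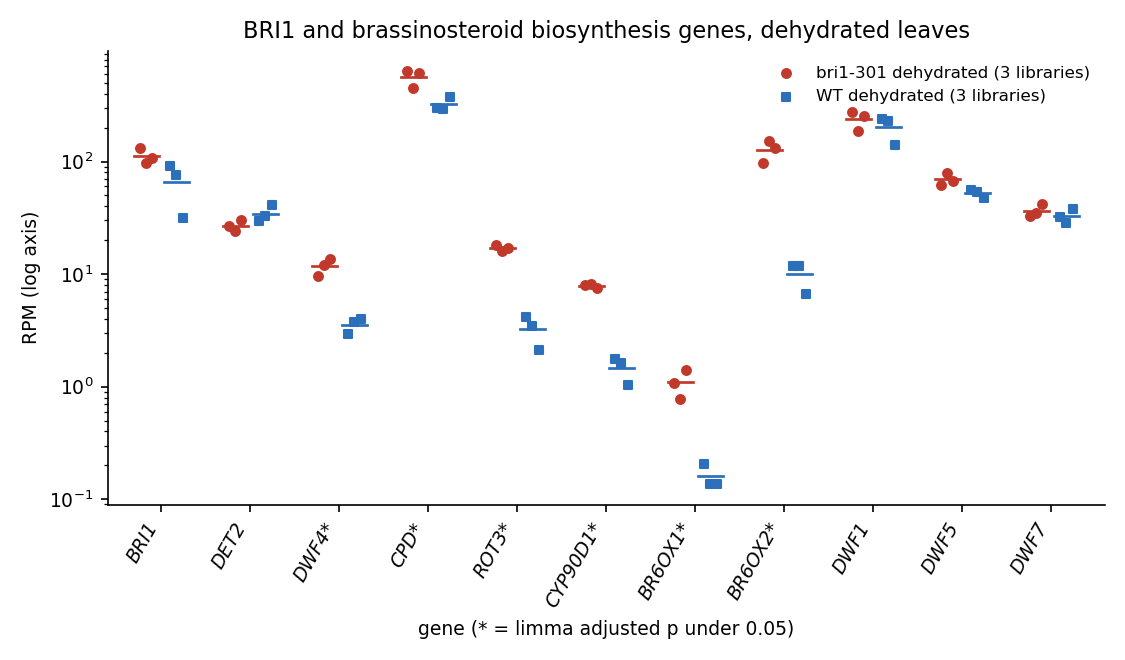
RPM of BRI1 and the 10 brassinosteroid synthesis genes in the 6 dehydrated libraries (log axis; points are libraries, bars are means of 3, stars mark a limma adjusted p under 0.05). The 6 starred genes show no overlap between genotypes, from CPD (447 to 632 against 295 to 378 RPM) to BR6OX2 (96.2 to 151 against 6.59 to 11.9 RPM).

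Dehydrated leaves of the other 3 lines gave a yardstick for these levels. In bes1-D, atg7-2 and DSK2 RNAi together (9 libraries) BR6OX2 ran from 0.174 to 20.9 RPM, ROT3 from 0.207 to 5.46 RPM and CPD from 34.0 to 284 RPM. For each of the 6 genes that rose, all 3 bri1-301 libraries lay above all 12 dehydrated libraries of the other 4 genotypes. Among all 221 called genes this was so for 56 of the 97 higher genes, and 47 of the 124 lower genes lay below all 12. The latter held for 5 of the 12 called SAUR genes and 2 of the 4 called Aux/IAA genes; SAUR20, for one, reached down to 2.31 RPM in atg7-2. Over all genes tested bri1-301 lay outside the 12 for 1.82%. These counts share the bri1-301 libraries with the test and are a description.

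Of 6 tested genes that inactivate the hormone, BEN1 fell, a reductase-like protein that lowers brassinosteroid levels when overexpressed. It had 2.45, 2.00 and 2.22 RPM in bri1-301 and 3.68, 5.04 and 4.44 RPM in WT (-0.84, SE 0.21, limma adjusted p = 0.0358), and it did not pass without WT replicate 3 (adjusted p = 0.138). BAS1, the P450 that inactivates brassinolide, differed by -0.62 without passing (limma adjusted p = 0.150). It passed together with BEN1 with the length trend removed (limma adjusted p = 0.0394) and in control leaves (limma adjusted p = 0.00323), and the list also held 2 lower calls with edgeR and with median-of-ratios scaling.

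None of the 21 tested genes of perception and signalling passed limma's test or edgeR's, 7 had an unadjusted limma p under 0.05, and the list's median of 0.20 equalled that of all genes. BRL3, a receptor close to BRI1 that acts in the vasculature, had the largest difference in the list. It stood at 18.1, 20.7 and 14.8 RPM in bri1-301 and at 13.2, 10.3 and 3.93 RPM in WT, without overlap (1.07, SE 0.34, limma adjusted p = 0.130). The transcription factors BES1 and BZR1 differed by -0.28 each, with 95% intervals of -0.64 to 0.086 and -0.57 to 0.016. BAK1 differed by 0.40 (0.078 to 0.72) and BIN2 by 0.027 (-0.32 to 0.37), and none of these 4 passed. These 4 genes were chosen for their place in the pathway and not by the rule for named genes.

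The SAUR list had the median furthest from 0 of the 38 lists. SAUR proteins restrain PP2C.D phosphatases that act on the plasma-membrane proton pump, and so promote cell expansion. Of 13 members, 12 fell and none rose, with a median of -2.01. The thirteenth, SAUR14, had 5.44, 5.66 and 6.93 RPM against 9.73, 14.5 and 18.4 RPM (-1.14, limma adjusted p = 0.0576). All 13 had no overlap between genotypes, which held for 28.3% of all genes tested.

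SAUR20 (AT5G18020) had 2.31, 1.69 and 3.04 RPM in bri1-301 and 13.9, 17.7 and 19.5 RPM in WT, a difference of -2.63 (SE 0.28, limma adjusted p = 2.07e-07). SAUR22 (AT5G18050) had 2.28, 2.00 and 3.04 RPM against 11.7, 14.8 and 13.6 RPM, a difference of -2.25. SAUR10 (AT2G18010) had 0.0340, 0.203 and 0.171 RPM against 2.10, 2.83 and 2.29 RPM, a difference of -2.19, with 1 to 6 reads in each mutant library. Every mutant library lay below every WT library for these genes, and each passed in all 16 alternatives. SAUR19 to SAUR24 are near-identical neighbours, and how the authors counted reads that match several genes is not given, so the split between them is uncertain.

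SAUR transcripts are short, and short genes were lower in this comparison as a class. Among the 3141 tested genes with transcripts in the list's range of 495 to 1048 bases, 2.04% were called lower and the median difference was -0.13. Without WT replicate 3, 11 of the 13 SAUR genes passed with a median of -1.96. With the length trend removed 10 passed with a median of -1.67, and with edgeR on recovered reads all 13 passed.

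The wider SAUR family, taken after these values were seen from RefSeq's gene products, held 59 tested genes. In it 23 fell and none rose, with a median of -0.62, and 20 fell without WT replicate 3. The family was thus not uniform: differences ran from -2.63 to 0.50, and 12 of the 59 were above 0. SAUR9 and SAUR24, which were among the most lowered genes, belong to the fixed list as well. SAUR9 had 2.45, 2.30 and 2.97 RPM in bri1-301 against 8.84, 10.7 and 14.9 RPM in WT (-1.94, SE 0.27, limma adjusted p = 3.87e-05).

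Other auxin-response genes gave a mixed picture. Of 12 Aux/IAA and GH3 genes, the Aux/IAA repressors IAA5, IAA17, IAA19 and IAA1 fell by 1.67, 1.18, 1.02 and 1.01 on the log2 scale. IAA17 (AT1G04250) had 9.46, 8.00 and 8.94 RPM in bri1-301 against 18.2, 19.8 and 24.0 RPM in WT (SE 0.20, limma adjusted p = 0.000769). IAA5 and IAA17 passed without WT replicate 3 and IAA1 and IAA19 did not. With the length trend removed IAA5 and IAA17 were likewise the 2 lower calls, and the GH3 gene DFL1 became 1 higher call (1.40, limma adjusted p = 0.0469). In the opposite direction GH3.17 (AT1G28130), which conjugates auxin to glutamate and is outside that list, had 11.8, 19.1 and 13.5 RPM against 4.92, 5.58 and 1.47 RPM (1.90, SE 0.43, limma adjusted p = 0.0196). Its adjusted p was 0.237 without WT replicate 3.

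Expansins loosen cell walls, and 4 of 13 tested alpha-expansins fell, with a list median of -0.48. EXPA8 (AT2G40610) had 6.70, 5.02 and 11.7 RPM in bri1-301 and 114, 94.4 and 74.7 RPM in WT, a difference of -3.57 (SE 0.45, limma adjusted p = 7.08e-06). EXPA11 (AT1G20190) had 6.33, 3.12 and 6.59 RPM against 46.3, 33.1 and 27.4 RPM, a difference of -2.66 (SE 0.37, limma adjusted p = 2.94e-05). In both the mutant libraries were several fold below the lowest WT library. EXPA1 (-1.57) and EXPA3 (-1.14) also fell, and EXPA1 did not pass without WT replicate 3 (adjusted p = 0.0764). For none of these 4 genes did all 3 bri1-301 libraries lie below all 12 dehydrated libraries of the other genotypes. EXPA8 ran from 8.34 to 369.7 RPM in the 9 libraries of bes1-D, atg7-2 and DSK2 RNAi, and its lowest value was in atg7-2.

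In the other wall lists no gene passed. None of 22 XTH genes, which cut and rejoin xyloglucan, passed limma's test or edgeR's, with a median of 0.018 and 4 at an unadjusted p under 0.05. XTH15 had the largest difference (1.34, limma adjusted p = 0.290), and XTH4, named after its values were seen, stood at 67.7, 41.9 and 65.4 RPM in bri1-301 against 120.4, 139.99 and 140.06 RPM in WT (-1.22, limma adjusted p = 0.109). XTH4 passed in 2 of 16 alternatives, DESeq2 and median-of-ratios scaling, and in starved leaves (limma adjusted p = 0.0235). The XTH list gave 5 lower calls in control and 2 in starved leaves. None of the 7 genes of primary-wall cellulose synthesis passed either test, with a median of 0.50 and 1 at an unadjusted p under 0.05, and the member with the largest difference was CESA2 at 1.08 (limma adjusted p = 0.183).

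Among 19 tested bHLH growth regulators 2 fell, both of the PRE group, small bHLH proteins that free other bHLH factors from their inhibitors. PRE6 (AT1G26945) had 18.6, 22.7 and 29.9 RPM in bri1-301 and 140.4, 172 and 126 RPM in WT (-2.61, SE 0.27, limma adjusted p = 1.24e-07). PRE5 (AT3G28857) had 0.578, 0.102 and 0.341 RPM against 1.62, 2.62 and 2.73 RPM (-1.76, SE 0.27, limma adjusted p = 0.00019), with 3 to 17 reads in a mutant library. In both genes all 3 bri1-301 libraries lay below all 12 dehydrated libraries of the other genotypes. The list's median was -0.58, and its BEE and IBH members did not pass, among them BEE3 at -0.93 and IBH1 at -0.16.

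**Figure D3:**
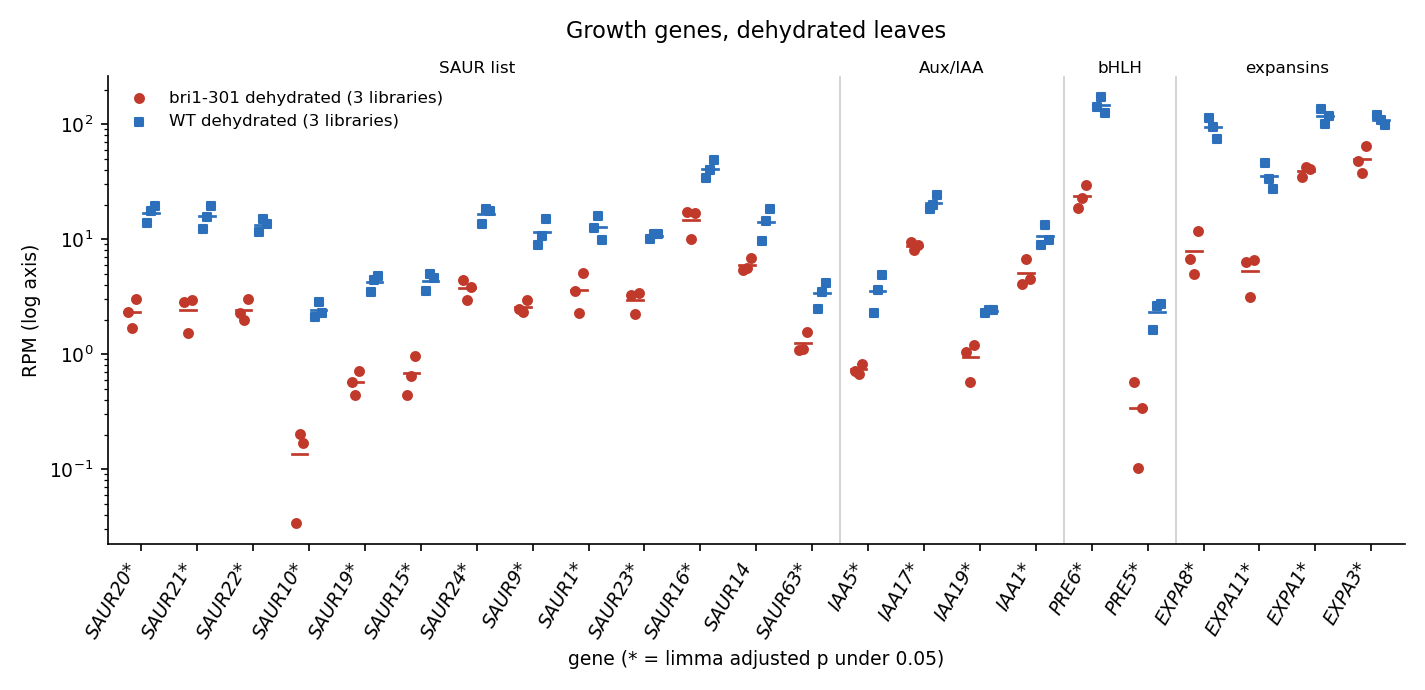
RPM of the 13 SAUR genes and of the called Aux/IAA, bHLH and expansin genes in the 6 dehydrated libraries (log axis; points are libraries, bars are means of 3, stars mark a limma adjusted p under 0.05). In every gene drawn all bri1-301 libraries lie below all WT libraries, from EXPA8 (5.02 to 11.7 against 74.7 to 114 RPM) to SAUR14, which is without a star.

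Among 16 tested gibberellin genes 3 fell and none rose, with a median of -0.17, and with the length trend removed GASA6 alone passed. GASA6 (AT1G74670), a small gibberellin-regulated peptide that promotes elongation, had 35.0, 30.7 and 47.5 RPM in bri1-301 and 139.8, 133 and 140.3 RPM in WT (-1.88, SE 0.40, limma adjusted p = 0.0108). GA20OX1, which makes gibberellin precursors, fell by 0.92 on the log2 scale, and GA2OX8, which inactivates them, fell by 0.70. GA2OX8 did not pass without WT replicate 3 (adjusted p = 0.11).

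The abscisic acid and dehydration lists gave 1 call among 62 tested genes, which is 1.61% and near the 1.11% of all genes. These 4 lists covered synthesis, receptors, the PP2C phosphatases with their SnRK2 kinases and ABF factors, and the dehydrins and other protective proteins. Their median was 0.10, 57 of the 62 differed by less than 1 on the log2 scale, and 16.1% had an unadjusted p under 0.05 against 20.3% of all genes. A p that misses the threshold does not show that the genotypes were alike: the median SE was 0.31.

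The gene that passed was CYP707A2 (AT2G29090), which degrades abscisic acid. It had 8.16, 7.42 and 7.68 RPM in bri1-301 and 17.3, 16.7 and 21.8 RPM in WT (-1.20, SE 0.29, limma adjusted p = 0.0358), and it did not pass without WT replicate 3 (adjusted p = 0.199). All 3 WT libraries lay above all 12 dehydrated libraries of the 4 other lines for this gene, so WT and not bri1-301 was set apart.

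Well-known dehydration genes were read by name, outside the rule. RD29A had 286, 292 and 192 RPM in bri1-301 against 206, 186 and 64.5 RPM in WT, a difference of 0.90 with a 95% interval of -0.25 to 2.04, and 0.36 without WT replicate 3. The dehydrin RAB18 (AT5G66400) had 65.3, 42.0 and 39.5 RPM against 62.0, 64.6 and 109.6 RPM (-0.67, interval -1.42 to 0.083). The genotypes overlapped for both genes. RD29B, at a low level, had 2.04, 2.10 and 1.47 RPM against 4.13, 2.72 and 3.35 RPM (-0.71, interval -2.20 to 0.77). It did not pass and had no overlap, which held for 28.3% of all genes tested. NCED3, the main drought-induced step of abscisic acid synthesis, differed by -0.30 (-0.98 to 0.38). RD26, a NAC factor that opposes BES1 on growth genes, differed by -0.051 (-0.52 to 0.42) and the phosphatase gene HAI1 by -0.33 (-1.28 to 0.61).

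Stress transcription factors gave 2 calls. WRKY40 (AT1G80840), induced by wounding and pathogens, had 34.0, 57.0 and 35.9 RPM in bri1-301 and 10.8, 13.4 and 10.04 RPM in WT (1.82, SE 0.40, limma adjusted p = 0.0164). MYB15 (AT3G23250), a regulator in cold and defence, had 12.5, 20.7 and 14.7 RPM against 5.19, 4.84 and 3.59 RPM (1.70, SE 0.40, limma adjusted p = 0.0249). The mutant libraries lay above all 12 others in both genes, yet neither passed without WT replicate 3 (adjusted p = 0.0898 and 0.146). No other gene of the 17 WRKY genes or of the 26 stress NAC, DREB, HD-Zip and MYB genes passed. WRKY46, WRKY54 and WRKY70, which act with BES1 in growth and drought, differed by 0.68, 0.83 and 0.44, and were chosen by name.

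Jasmonate genes had a median of 0.61 over 27 members, 24 of them above 0, but a single gene passed. Of all 19824 genes tested, 13439 were also above 0, with a median of 0.20. With edgeR the jasmonate median was 0.25, against 0.0091 for all genes. JAZ10 (AT5G13220), a repressor of jasmonate responses, had 68.4, 82.2 and 76.6 RPM in bri1-301 and 34.4, 30.2 and 43.6 RPM in WT (1.07, SE 0.26, limma adjusted p = 0.0317), and it passed without WT replicate 3 (adjusted p = 0.0393). It did not pass with median-of-ratios scaling or with edgeR, which left no call in the list, and its adjusted p over the alternatives ran from 0.028 to 0.20. The lipoxygenase gene LOX3, for comparison, stood at 280.3, 222 and 197 RPM against 96.8, 102 and 46.9 RPM, without overlap, and did not pass (1.57, SE 0.50, limma adjusted p = 0.128).

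In the glucosinolate list MYB29, a regulator of aliphatic glucosinolates, was the 1 call among 26 genes (1.39, limma adjusted p = 0.0448, and 0.372 without WT replicate 3). PAP2, a MYB regulator of anthocyanin, fell by 0.86 on the log2 scale as the 1 call among 17 flavonoid genes (limma adjusted p = 0.0460, and 0.423 without WT replicate 3). MAF5, a MADS-box repressor of flowering, fell by 1.04 on the log2 scale among 14 flowering genes (limma adjusted p = 0.0416, 0.0435 without WT replicate 3, and 0.118 with the length trend removed, where it no longer passed). A single call gives no result about a list.

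Autophagy, with 34 genes and a median of 0.065, held no gene that passed limma's test or edgeR's and 7 at an unadjusted p under 0.05, and the member with the largest difference was ATG2 at 1.09. The 42 nuclear photosynthesis genes held none either, with 10 at an unadjusted p under 0.05, but 39 of them were below 0, with a median of -0.27. Of all 19824 genes tested, 6332 were below 0. With the length trend removed the median of the photosynthesis genes was -0.092, against 0.21 for all genes. It was -0.50 with median-of-ratios scaling and -0.49 with edgeR, where the median of all genes was near 0. The summed level of the 42 genes was 144390 to 159460 RPM in bri1-301 and 178440 to 205730 RPM in WT, without overlap and with the highest sum in WT replicate 3. Senescence, salicylic acid, ethylene, proline and raffinose, cuticle, aquaporin, sugar starvation, clock, cell division and heat shock lists also held no gene that passed limma's test, and between 0 and 6 genes each at an unadjusted p under 0.05. The most displaced of their members was the sugar transporter gene SWEET15, a senescence marker, with 0.204, 0.441 and 0.955 RPM in bri1-301 and 1.62, 8.44 and 9.39 RPM in WT (-2.53, SE 0.84, limma adjusted p = 0.149). The cuticle list held 1 lower call with edgeR. The lists of this paragraph do not hold every gene of their themes. ATG18D, outside the autophagy list, was called higher, and all WT libraries lay below all 12 dehydrated libraries of the other lines. DIN11, EBP and CLH2 were also called outside these lists.

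Marker lists of leaf and other cell types gave no call in limma's test. None of their 42 tested genes passed it, and 8 had an unadjusted p under 0.05, which is 19.0% against 20.3% of all genes. With edgeR 1 floral organ marker was called lower. The summed level of xylem markers was 65.1 to 76.7 RPM in bri1-301 and 49.1 to 57.7 RPM in WT, and that of phloem markers was 417 to 662 against 361 to 381 RPM, both without overlap. Guard cell markers summed to 3459 to 4718 against 1966 to 3795 RPM and epidermis markers to 404 to 483 against 369 to 486 RPM, both with overlap. Floral organ markers were low in all 6 libraries, at 6.91 to 7.25 against 9.94 to 16.8 RPM without overlap, and shoot meristem markers stood at 6.55 to 10.5 against 5.67 to 8.32 RPM, with 1 meristem gene at 0 in WT. The part of cell composition in the gene differences was not tested.

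**Figure D4:**
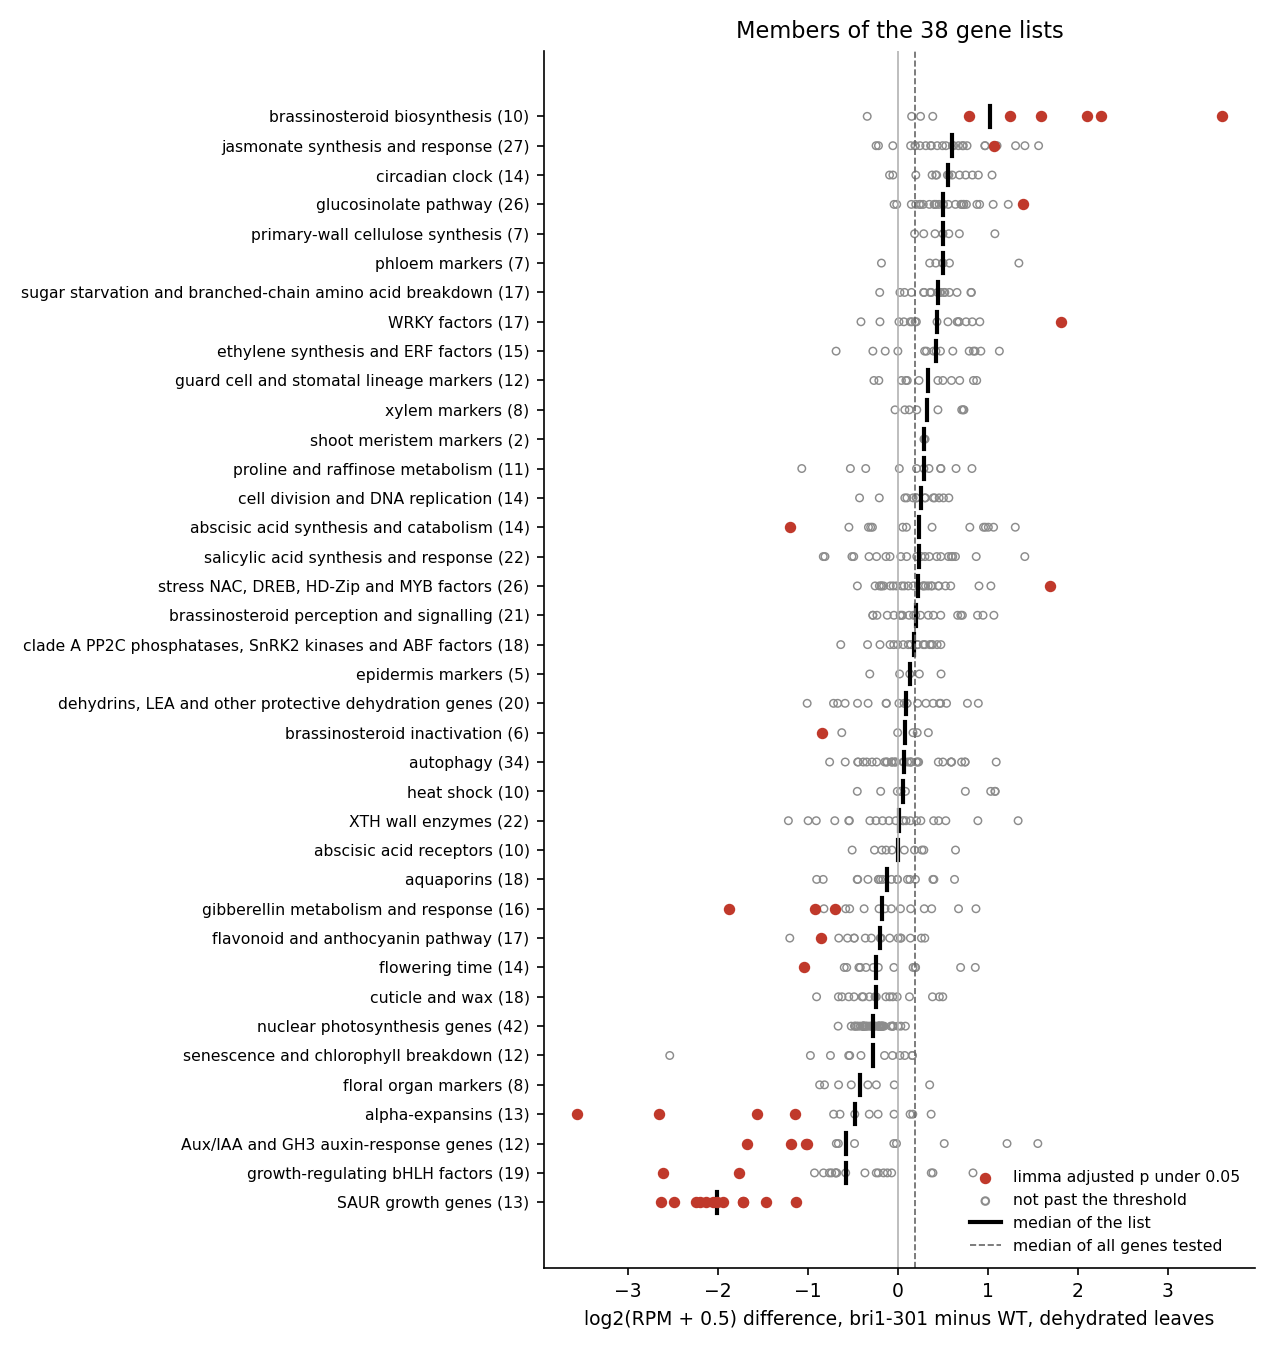
Log2 difference (bri1-301 minus WT, dehydrated leaves) of every tested member of the 38 lists, with the number tested in parentheses; filled points passed limma's test, black ticks are list medians and the dashed line is the median of all genes, 0.20. The brassinosteroid synthesis list lies at the top with a median of 1.02 and the SAUR list at the bottom with -2.01.

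Outside the lists, some genes had few or no reads in one genotype. AT3G01345, chosen after its values were seen, had 99.1, 79.5 and 103 RPM in dehydrated bri1-301 and 0.0688, 0.102 and 0.0341 RPM in WT. That is 8271 reads against 6, a ratio of 1374 with a 95% exact counting interval of 631 to 3744. It was at 112 to 155 RPM in control and 343 to 385 RPM in starved bri1-301, and at no more than 1.31 RPM in any library of the 4 other genotypes.

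For other genes it was WT that stood apart. MRD1 (AT1G53480) and its neighbour HEI10 (AT1G53490), the latter a factor in meiotic crossing over, rose in bri1-301. MRD1 had 17.5, 17.1 and 19.1 RPM against 0.722, 2.76 and 0.341 RPM (3.62, SE 0.28, limma adjusted p = 2.34e-10). HEI10 had 20.99, 21.6 and 22.8 RPM against 1.79, 4.09 and 1.06 RPM (3.13, SE 0.22, limma adjusted p = 3.63e-11). In the 9 dehydrated libraries of bes1-D, atg7-2 and DSK2 RNAi both genes were also high, MRD1 at 17.7 to 34.5 RPM and HEI10 at 21.3 to 34.7 RPM. AT3G05170, again chosen after its values were seen, was listed at 0 in all 3 dehydrated WT libraries and had 3.37, 5.32 and 4.03 RPM in bri1-301, at least 41.1-fold higher against a floor of 3 reads per library. The other 3 lines had 2.51 to 6.72 RPM of it when dehydrated. WT lay outside all 12 libraries of the 4 mutant lines for 7 of the 97 higher genes and 1 of the 124 lower genes, and over all genes for 0.706%.

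QQS (AT3G30720), a gene found only in this species that affects starch and protein content, fell, with 1.77, 3.56 and 1.98 RPM in bri1-301 and 25.2, 18.5 and 32.6 RPM in WT (-3.16, SE 0.43, limma adjusted p = 2.38e-05). Its level in control WT varied widely, at 30.3, 3.71 and 17.1 RPM. RGF6 (AT4G16515) and RGF9 (AT5G64770), secreted peptides known as root growth factors, fell by 2.12 and 2.02 on the log2 scale. WAG2 (AT3G14370), a kinase that directs auxin transporters, had 1.09, 0.881 and 1.74 RPM against 8.91, 7.73 and 3.86 RPM (-2.03, SE 0.26, limma adjusted p = 9.52e-06). DRT100, a leucine-rich repeat protein, fell by 1.99 on the log2 scale.

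Among the most raised genes, IDL3 (AT5G09805), a peptide related to the abscission signal IDA, had 6.80, 5.05 and 7.88 RPM in bri1-301 and 0.997, 1.50 and 0.956 RPM in WT (2.10, SE 0.24, limma adjusted p = 8.12e-07). KT1 (AT2G30070), a potassium transporter, had 28.4, 37.8 and 29.4 RPM against 9.94, 8.89 and 6.15 RPM (1.89, SE 0.34, limma adjusted p = 0.00196). Both were above all 12 other dehydrated libraries in all 3 mutant libraries. MYB56 (1.97), the mechanosensitive channel gene MSL9 (2.04) and the NADPH oxidase gene RHD2 (2.17) also rose, and of these MSL9 and RHD2 did not pass without WT replicate 3 (adjusted p = 0.105 and 0.157).

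Promoters of the genes with the largest differences among the called synthesis and bHLH genes are shown because BR6OX2, ROT3 and CYP90D1 had large rises and PRE6 and PRE5 large falls. BES1 and BZR1 are known to bind CGTGTG and CGTGCG as well as the sequences CACGTG and, more loosely, CANNTG. The 250 bases before the annotated gene start were read from RefSeq's TAIR10.1 assembly, 5′ to 3′ on the gene's strand, and searched on both strands. Capitals mark a match to any of these motifs. The windows are BR6OX2 (chr3:11810476-11810725, plus strand), PRE6 (chr1:9350910-9351159, plus strand), ROT3 (chr4:17192508-17192757, minus strand), CYP90D1 (chr3:4500921-4501170, minus strand) and PRE5 (chr3:10856788-10857037, minus strand).
BR6OX2: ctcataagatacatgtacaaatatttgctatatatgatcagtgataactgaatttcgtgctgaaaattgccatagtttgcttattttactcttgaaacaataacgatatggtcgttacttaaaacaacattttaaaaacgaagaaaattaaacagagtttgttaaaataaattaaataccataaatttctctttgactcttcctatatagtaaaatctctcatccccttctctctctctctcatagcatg
PRE6: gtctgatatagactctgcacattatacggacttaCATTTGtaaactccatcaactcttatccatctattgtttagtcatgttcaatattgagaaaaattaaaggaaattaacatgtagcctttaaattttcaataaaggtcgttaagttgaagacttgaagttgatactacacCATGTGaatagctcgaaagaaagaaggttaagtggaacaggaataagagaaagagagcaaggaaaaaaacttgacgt
ROT3: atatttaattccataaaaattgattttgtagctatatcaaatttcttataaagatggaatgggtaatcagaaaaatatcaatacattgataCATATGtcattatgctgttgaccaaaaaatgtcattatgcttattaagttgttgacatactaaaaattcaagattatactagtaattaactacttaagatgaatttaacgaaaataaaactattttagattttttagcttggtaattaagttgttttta
CYP90D1: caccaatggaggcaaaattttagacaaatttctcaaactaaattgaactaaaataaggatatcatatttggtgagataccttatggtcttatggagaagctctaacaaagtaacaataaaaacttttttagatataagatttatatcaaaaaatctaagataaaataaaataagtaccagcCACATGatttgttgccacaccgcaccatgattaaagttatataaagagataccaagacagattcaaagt
PRE5: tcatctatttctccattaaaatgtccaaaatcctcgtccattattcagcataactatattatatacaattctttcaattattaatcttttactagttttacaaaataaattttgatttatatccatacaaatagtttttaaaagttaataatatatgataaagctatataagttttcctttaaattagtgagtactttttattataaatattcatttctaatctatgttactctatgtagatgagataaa

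None of the 5 windows held CGTGTG, and none held CGTGCG or the palindrome CACGTG. The looser CANNTG was found 2 times before PRE6 and 1 time each before ROT3 and CYP90D1. Over 19750 tested genes with such a window, 5.59% held CGTGTG, 1.67% CGTGCG, 7.60% CACGTG and 56.4% CANNTG, which includes CACGTG. Among windows of the 97 higher genes 10.3% held CGTGTG, 5.15% CGTGCG and 9.28% CACGTG. Among those of the 124 lower genes the shares were 7.26%, 0.806% and 5.65%. CANNTG was in 57.7% of the higher and 70.2% of the lower genes' windows. A match is a description of the letters in this window, and no match says nothing of binding elsewhere.

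The same genotype contrast in control leaves, which shares no library with the dehydrated one, gave calls that overlapped with it. In control leaves 191 genes passed (0.963%), 74 higher (0.373%) and 117 lower (0.59%), and 100 of them were among the 221, which is 45.2% of the dehydrated calls and 52.4% of the control calls. Of these, 36 were higher and 64 lower in both, and none was opposite. In sign alone 219 of the 221 were the same as in control leaves, against 80.6% of all genes. The exceptions were MAF5, at -1.04 in dehydrated and 0.25 in control leaves, and AT2G16660, at 0.68 and -0.0015.

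Brassinosteroid synthesis gave 6 calls in dehydrated, 6 in control and 5 in starved leaves, all higher, with medians of 1.02, 1.31 and 0.98. BR6OX2 differed by 3.61, 3.42 and 2.33 in these conditions, ROT3 by 2.26, 2.55 and 1.29, CYP90D1 by 2.11, 1.77 and 2.60, and DWF4 by 1.60, 1.95 and 2.21. The SAUR list gave 12 lower calls in dehydrated, 11 in control and 1 in starved leaves, with medians of -2.01, -1.66 and -0.49. The starved leaves of both genotypes had little SAUR message: SAUR20 was listed at 0 in both starved bri1-301 libraries and at 0.101 and 0.0345 RPM in the WT ones.

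Whether the genotype difference itself changed with dehydration was tested as an interaction. No gene passed in limma (0 of 19824 genes, 0.0%), where 199 genes had an unadjusted p under 0.05. edgeR and DESeq2 on recovered reads also gave none, with 219 and 238 genes at an unadjusted p under 0.05. The SE of an interaction is larger than that of the dehydrated contrast. EXPA8 differed by -3.57 in dehydrated and by -2.14 in control leaves, and the interaction of -1.43 had an SE of 0.64, against 0.45 for the dehydrated contrast. Recovery was not simulated for the interaction.

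In starved leaves, which have 2 libraries a genotype, 428 genes passed (2.16%), 101 higher (0.509%) and 327 lower (1.65%). The 2 starved bri1-301 libraries differed in the slope of log2 level on log2 transcript length, at -0.14 and 0.74. The starved WT libraries were at -0.18 and 0.00094. The part of this in the starved calls was not tested. Of the 428 genes, 30 were called in the same direction in dehydrated leaves, 13.6% of the dehydrated and 7.01% of the starved calls, and 1 was opposite. The difference between the dehydrated and the starved contrast passed for 160 genes (0.807%), 126 of them with the higher value in dehydrated leaves (0.636%) and 34 with the lower (0.172%). Genes called in the same direction under all 3 conditions numbered 25, with 17 higher and 8 lower. The higher ones include BR6OX2, ROT3, CYP90D1, DWF4, CPD, IDL3, MRD1 and HEI10, and the lower ones include PRE6, SAUR9, RGF9 and QQS.

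**Figure D5:**
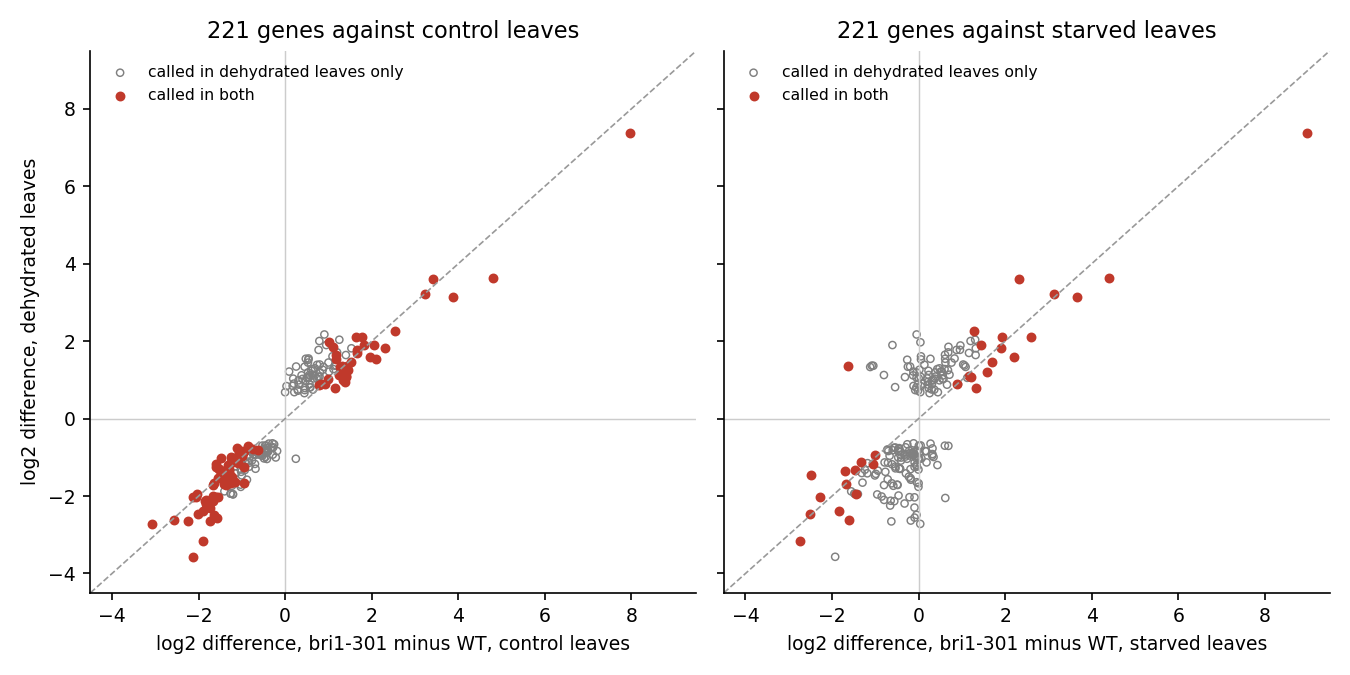
Log2 difference (bri1-301 minus WT) of the 221 genes in dehydrated leaves against their difference in control leaves (left) and in starved leaves (right); filled points also passed in the other condition and the dashed line marks equal differences. In control leaves 219 of the points (99.1%) have the same sign as in dehydrated leaves, against 80.6% of all genes tested. In starved leaves 179 (81.0%) do, against 72.3% of all genes tested.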

How the data were processed

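Leaf RNA of 40 libraries was analysed, of 64 in the labels; 24 were not analysed here. For each gene the authors gave 1 read signal per library, headed RPM in the deposited table; columns sum to 985308 to 1023136, so the unit is treated as signal. GSNAP, DESeq2 and TAIR10 are named in the submitters' processing notes, without roles or versions. Strand use and the treatment of reads shared by several genes are not stated in these sources. The table has 33366 lines, of which 4591 without a gene identifier were dropped, leaving 28775 genes, and 28009 identifiers matched RefSeq's TAIR10.1 gene table, which gave symbols and transcript lengths (longest transcript). All 279 organelle genes are listed at 0. Values were whole multiples of 1 read in 100% of cases (tolerance 0.01 reads, 26.3 to 29.8 reads per RPM); edgeR 4.0.16 and DESeq2 1.42.0 on those reads were alternatives.

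Values were tested as log2(RPM + 0.5), which understates the change of low genes, with limma 3.58.1 (mean-variance trend, R 4.3.3) over all 40 libraries by group, with 25 residual degrees of freedom. Tests are two-sided, and p-values were adjusted by Benjamini-Hochberg over 19824 genes in each comparison, with calls at adjusted p under 0.05. Genes had at least 1 RPM in at least 2 libraries. The fit was tested on simulated data. Alternatives were pseudocounts of 0.1 and 1 RPM, no filter, median-of-ratios scaling, a fit to the compared libraries only, a replicate block, each replicate left out, and removal of the length trend.

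The 38 lists hold 626 genes, 597 of them tested. Named genes are BRI1, every synthesis gene, up to 4 called members of each other list by size (or its largest uncalled member), and the 12 most raised and 12 most lowered called genes with a symbol, at least 5 RPM in the higher group and no overlap between libraries. Members and lists were chosen with earlier results of these data known.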

Additional observations from a re-analysis of the deposited data

Results flagged for a closer look

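The genotype difference itself differed between dehydrated and starved leaves for 9 of the named genes. This was tested as the log2 difference in dehydrated leaves minus that in starved leaves in the same limma fit, in which 160 genes passed (0.807%). Of the 160, 126 had the higher value in dehydrated leaves (0.636%) and 34 the lower (0.172%). Most named genes were chosen by their dehydrated difference, which is part of this value. The count of 9 and its direction therefore describe the genes named, not all genes. Growth genes made up most of the 9: SAUR20 at -2.45, SAUR21 at -2.44, SAUR10 at -1.87, PRE5 at -1.76, IAA5 at -1.67 and SAUR22 at -1.59. WAG2 was at -1.94 and the peptide gene RGF6 at -1.48, and MYB56 was at 1.93.

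Levels in starved leaves stood near 0 for most of these genes in both genotypes. IAA5 was listed at 0 in all 4 starved libraries, so its value of -1.67 is its difference in dehydrated leaves alone. SAUR21 was listed at 0 in 3 of the 4, and MYB56 was at 0 to 0.101 RPM. RGF6 was at 0.266 and 0.473 RPM in starved bri1-301 and at 0.775 and 0.930 RPM in starved WT, against 2.11 to 3.04 and 8.98 to 15.4 RPM in dehydrated leaves. For the genes other than IAA5, the part of these low levels in the differences was not tested.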

How the results depend on the processing

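For dehydrated leaves, against 221 calls (97 higher, 124 lower), DESeq2 gave 448 (146, 302), the fit to the 6 compared libraries alone 59 (24, 35), and removal of the length trend without WT replicate 3 112 (44, 68). That last setting was added after seeing the data, as were all for control and starved leaves. edgeR gave 55 higher genes. Leaving out 1 library gave 81 to 212 calls, 34 to 92 higher and 47 to 120 lower. The lowest was without bri1-301 replicate 2, and counts fell over 1.5 times without WT replicate 2 (110) and 3 (104) and without bri1-301 replicate 1 (122) and 3 (144). In all 16 alternatives 40 genes passed, 15 higher and 25 lower. The interaction had 0 calls in each alternative run.

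In control leaves, 191 calls became 372 with DESeq2, 38 with only the compared libraries and 84 to 305 with 1 library left out. In starved leaves, 428 became 2215 with DESeq2, 1031 with edgeR, 752 with median-of-ratios scaling and 0 with only the compared libraries, and 85 to 6427 with 1 library left out, where the lone library is assumed to vary like the others. The length slopes of the 2 starved bri1-301 libraries were far apart, at -0.14 and 0.74. The cause of the changes in count was not tested.

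Among the 75 genes named by rule, signs turned in genes that had not passed: DWF1 (-0.064, length trend and WT replicate 3 removed), DWF7 (-0.092 in DESeq2, -0.073 in edgeR and -0.074 with median-of-ratios scaling) and the epidermis gene PDF2 (-0.23 with the length trend and WT replicate 3 removed, and -0.12 to 0.81 with 1 library left out, the lowest without WT replicate 3). Of the genes named outside that rule, RD26 (0.098), BIN2 (-0.084) and IBH1 (0.018) turned without WT replicate 3, and BIN2 also with the length trend removed (-0.048); none had passed.

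Whether replicate numbers pair the libraries was not settled. Deviations of same-numbered dehydrated libraries correlated at 0.036, 0.36 and 0.55, and those of other pairs at -0.53 to 0.37. The highest of the latter joined bri1-301 replicate 2 and WT replicate 1. In control leaves same-numbered libraries correlated at 0.010, 0.29 and 0.31, and other pairs at -0.31 to 0.11. A replicate block gave 245 calls, 199 of them among the 221.

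Of the 75 named genes, 5 to 18 lost their call when 1 library was left out, the most without bri1-301 replicate 2, and 23 in the fit to the compared libraries alone.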
